A study of Mus musculus with 15 samples.

Results

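The nuclear genes of the mitochondrial respiratory chain were examined in E14.5 mouse hearts that carried a changed Adamts16 allele. Members were the protein-coding genes whose mouse symbol starts with Nduf, Uqcr, Atp5, Cox4, Cox5, Cox6, Cox7 or Cox8, together with Sdha, Sdhb, Sdhc, Sdhd and Cyc1, without -ps pseudogenes. This gave 95 gene identifiers out of 55335 in the table, with 36 in complex I, 4 in complex II, 9 in complex III, 19 in complex IV and 17 in complex V. The other 10 share a symbol prefix but are not subunits: 8 are assembly factors of complex I (Ndufaf genes), Cox7a2l is a supercomplex factor and Atp5s is a factor related to the ATP synthase. Ndufa4, named for complex I but known as a subunit of cytochrome c oxidase, was counted in complex IV with its paralog Ndufa4l2.

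The libraries were 4 from hearts labelled Adamts16+/-, which by the series' design text are the knockout allele, 4 from hearts labelled Adamts16+/H355Q, which carry the mutant allele H355Q, and 7 from WT hearts. All animals with a changed allele were heterozygous by their labels, and no treatment is given. Adamts16 is the gene of a metalloprotease that cells secrete into their matrix. Total RNA of hearts was sequenced, and the labels do not say whether a library held 1 heart or several, so n and SD count libraries. In 9 of the 15 libraries both Xist, the RNA of the inactive X chromosome, and the Y-linked Ddx3y were above 1 FPKM (fragments per kilobase per 1e6 fragments).

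The respiratory chain passes electrons from NADH (complex I) and succinate (complex II) through cytochrome bc1 (complex III) to cytochrome c oxidase (complex IV), and the proton gradient this builds drives the ATP synthase (complex V). A few subunits of complexes I, III, IV and V are encoded by mitochondrial DNA, and all others come from the nucleus, many of them from promoters bound by NRF1 and by the ETS factor GABPA. Heart and skeletal muscle use muscle isoforms of some complex IV subunits (Cox6a2, Cox7a1, Cox8b) beside the isoforms found in most tissues (Cox6a1, Cox7a2, Cox8a), and the share of muscle isoforms grows as the heart matures.

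Promoters were taken from RefSeq (GRCm38.p6), each from 250 bases before to 50 bases after the start of the gene. Of the 92 tested members 75 were matched, with 80 promoters, and all 32851 promoters of the table served for comparison. Motifs were searched on both strands, and none of them contains another. The NRF1 core GCGCATGC was found in 12 of the members' 80 promoters and in 2.71% of all promoters. The GABPA (ETS) core CCGGAAG was found in 22.5% of the members' promoters and in 8.86% of all. The E-box CANNTG, a common short motif, was found in 56 of 80 and in 72.31%, and the MEF2 core CTAAAAATA in 0 of 80 and in 0.52%. These letters mark matches, not bound sites. Of the 23 matched members called in any comparison described further on, 2 had the NRF1 core and 7 the GABPA core, and of the 52 other matched members 10 had the NRF1 core and 11 the GABPA core.

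Examples show the kinds of promoter among the members, with NRF1 and GABPA cores in capitals. Uqcrh, a subunit of complex III, is the most abundant called member with either core; its promoter lies at chr4:116075021-116075320 on the minus strand. Atp5k, a membrane subunit of the ATP synthase, was called in all settings tried and holds both cores; its promoter lies at chr5:108434350-108434649 on the minus strand, and the NRF1 core occurs there on both strands as a palindrome. Cox8b, the muscle isoform of a complex IV subunit, was the member called against WT; its promoter lies at chr7:140900397-140900696 on the minus strand and holds neither core in this window. Atp5k and Cox8b were picked for this display after their values were seen.
Uqcrh: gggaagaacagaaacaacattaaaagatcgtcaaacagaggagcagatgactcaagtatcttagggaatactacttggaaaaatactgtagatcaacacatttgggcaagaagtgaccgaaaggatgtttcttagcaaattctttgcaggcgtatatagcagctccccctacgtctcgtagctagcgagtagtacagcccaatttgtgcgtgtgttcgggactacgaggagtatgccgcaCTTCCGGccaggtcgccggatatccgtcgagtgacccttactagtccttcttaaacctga
Atp5k: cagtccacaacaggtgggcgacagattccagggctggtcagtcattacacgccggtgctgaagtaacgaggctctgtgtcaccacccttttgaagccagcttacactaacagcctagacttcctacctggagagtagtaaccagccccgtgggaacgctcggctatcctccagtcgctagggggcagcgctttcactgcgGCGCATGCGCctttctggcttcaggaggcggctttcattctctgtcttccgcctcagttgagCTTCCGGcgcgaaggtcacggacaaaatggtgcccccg
Cox8b: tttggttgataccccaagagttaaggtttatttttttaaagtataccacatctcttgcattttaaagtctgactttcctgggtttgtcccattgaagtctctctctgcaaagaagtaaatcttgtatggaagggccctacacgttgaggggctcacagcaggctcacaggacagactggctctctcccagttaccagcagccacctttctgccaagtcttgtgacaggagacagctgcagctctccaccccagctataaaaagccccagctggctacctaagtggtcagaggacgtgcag

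Nearly all of the chain was expressed. Of the 95 identifiers 92 had a mean of at least 0.5 FPKM and were tested. Cox8c and Cox7b2, known from the testis, had means of 0 and 0.0279 FPKM, and a second identifier with the symbol Atp5o was listed at 0. Over the 15 libraries the lowest mean level in complex I was 4.65 FPKM (Ndufb2). Mean levels ran from 42.3 (Sdhc) to 185 FPKM (Sdhd) in complex II, and from 41.5 (Uqcrq) to 227 FPKM (Uqcrh) in complex III. In complex IV they ran from 3.38 FPKM (Cox4i2, the oxygen-regulated form of subunit 4) to 391 FPKM (Cox6b1), and in complex V from 19.1 FPKM (Atp5l) to 489 FPKM (Atp5a1, the alpha subunit of the F1 head). FPKM divides by a gene length whose source is not given in the sources used here, so levels of genes with long annotated models, such as Ndufb2 and Atp5l, are uncertain. Many of these genes also have processed pseudogenes, and how reads shared with them were counted is not given either.

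Facts of the whole series that touch these genes were as follows. Adamts16 was at 0.0635 to 0.235 FPKM in Adamts16+/- libraries, 0.0677 to 0.125 FPKM in Adamts16+/H355Q libraries and 0.0324 to 0.235 FPKM in WT libraries, and Adamts16+/- libraries did not differ detectably from WT (log2 difference 0.02, exact permutation p = 0.83, two-sided), so its level does not check the labels. Depth estimated from the steps between low values was 37.3 to 47.9 M fragments (M, 1e6) in Adamts16+/- libraries, 50.9 to 58.8 M in those of Adamts16+/H355Q and 41.7 to 55.8 M in those of WT. The WT libraries numbered 5 to 7 stood apart from those numbered 1 to 4 on the first principal component, which held 27.62% of the variance, and no label separates them. Adamts16+/- libraries lay at -18.68 to -11.79 on it, beside WT libraries 1 to 4 at -19.55 to -12.18. Adamts16+/H355Q libraries lay at 8.49 to 23.08, beside WT libraries 5 to 7 at 8.02 to 36.07. The mutants thus separated along the same component as the WT libraries, and its part in their differences was not tested. Cardiomyocyte markers were present in all libraries (summed level 11726 to 15454 FPKM in Adamts16+/-, 13640 to 16474 FPKM in Adamts16+/H355Q and 12862 to 16545 FPKM in WT).

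All 5 complexes were lowest in Adamts16+/- libraries and highest in Adamts16+/H355Q libraries by group mean, with WT between. For complex I the mean of log2(FPKM + 0.5) over its 36 genes was 4.92 to 5.19 in Adamts16+/- libraries, 5.31 to 5.65 in Adamts16+/H355Q libraries and 4.98 to 5.55 in WT libraries. Both mutant groups overlapped WT, but not each other. The WT libraries fell on both sides: numbers 1 to 4 lay at 4.98 to 5.24 and overlapped Adamts16+/- libraries, and numbers 5 to 7 lay at 5.36 to 5.55 and overlapped Adamts16+/H355Q libraries. Complex V showed the same order, at 6.01 to 6.34 in Adamts16+/- libraries, 6.50 to 6.87 in Adamts16+/H355Q libraries and 6.09 to 6.78 in WT libraries. For 61 of the 92 members (66.3%) WT libraries 5 to 7 all lay above WT libraries 1 to 4, as they did for 15.95% of all genes tested. These WT subsets were set by expression and are not groups of the study. In bulk samples fewer cells of a type and less RNA per cell cannot be told apart.

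**Figure D1:**
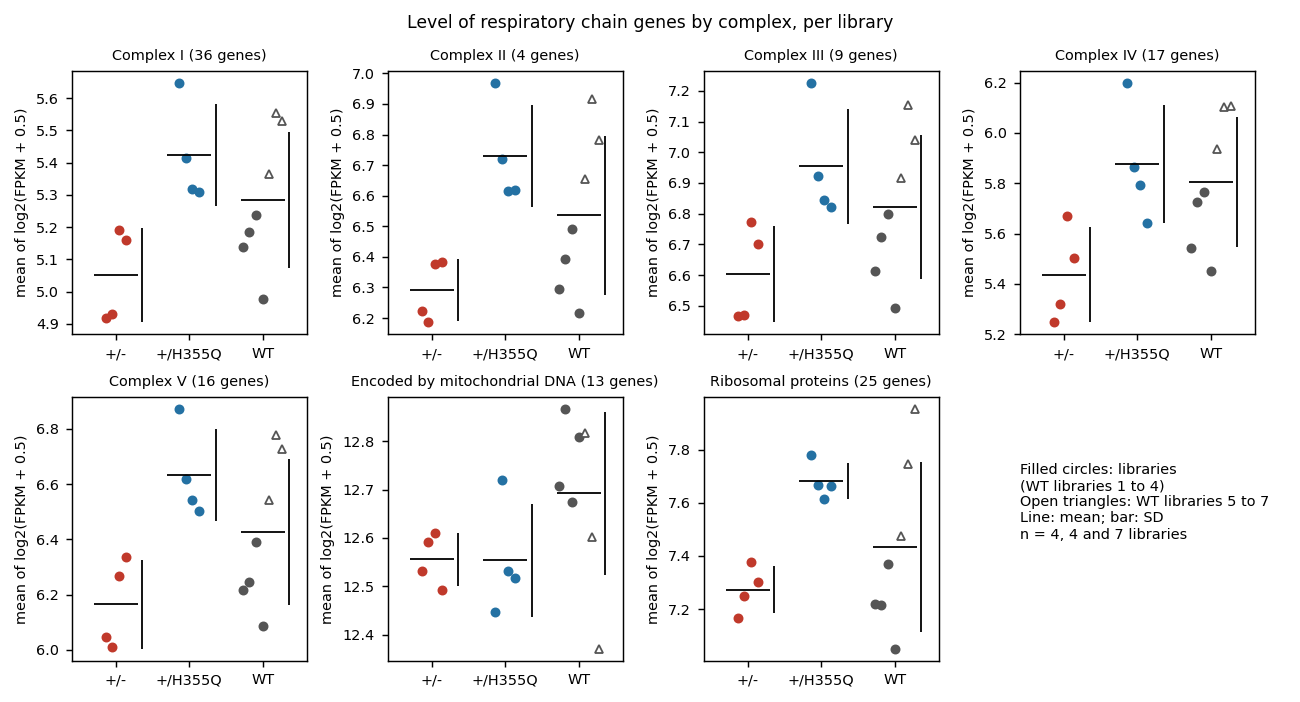
Mean of log2(FPKM + 0.5) over the genes of each list (vertical axes) in each library of Adamts16+/-, Adamts16+/H355Q and WT hearts (4, 4 and 7 libraries); lines are means, bars SD, and open triangles WT libraries 5 to 7. In complexes I to V except IV the Adamts16+/- points lie below all Adamts16+/H355Q points, WT spans both, and the 13 subunits encoded by mitochondrial DNA do not follow this order.

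The largest set of differences was between both mutant genotypes. Of the 92 tested members 27 were lower in Adamts16+/- than in Adamts16+/H355Q hearts at an adjusted p under 0.05 (limma, Benjamini-Hochberg over all 15172 genes) and 0 were higher, which is 29.3% of members, where 4.33% of all genes tested were called lower and 5.71% higher. The median log2 fold change of the members was -0.38, against -0.02 over all genes tested, and 89 of 92 were negative. Libraries did not overlap (all 4 Adamts16+/- below all 4 Adamts16+/H355Q) for 48 members, against 13.1% of all genes tested. Called members came from all complexes: 10 of 36 in complex I, 2 of 4 in complex II, 4 of 9 in complex III, 4 of 17 in complex IV and 6 of 16 in complex V, besides Atp5s. The count rested on single libraries, with 5, 4 and 13 members called without Adamts16+/- library 1, 2 or 3, and 7 and 4 without Adamts16+/H355Q library 1 or 2, all of them lower. In that order these are 5.43%, 4.35%, 14.1%, 7.61% and 4.35% of members. Calls over all genes fell as well, with 0.646%, 0.85%, 1.25%, 1.27% and 0.573% of all genes called lower. Ndufa2, Ndufs1, Ndufs6 and Atp5k were called in each of the 30 alternatives run.

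**Figure D2:**
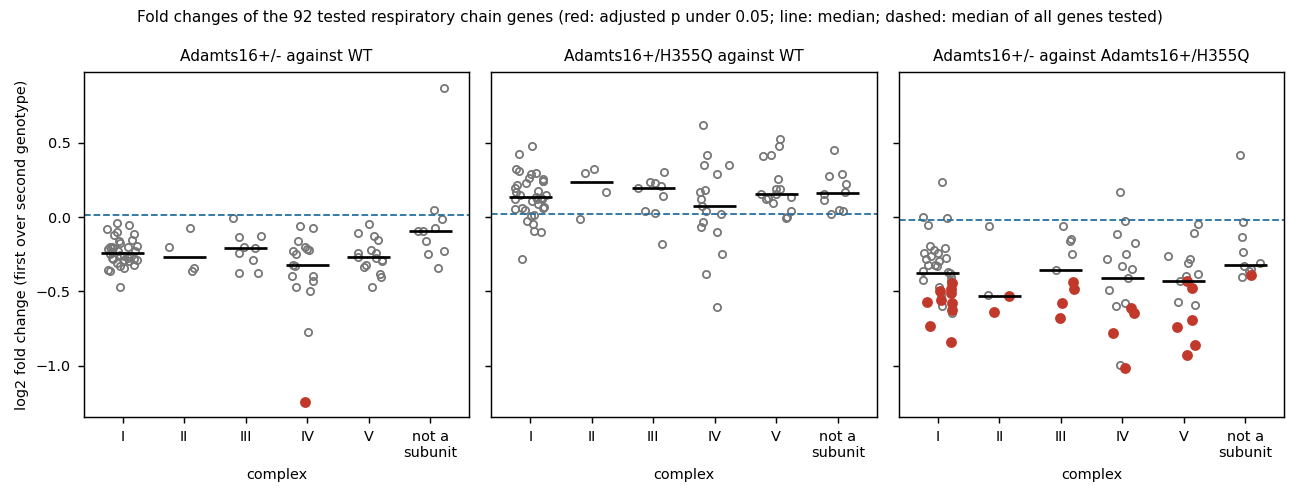
Log2 fold change (vertical axis) of each of the 92 tested members by complex in the 3 comparisons; red points passed an adjusted p under 0.05, black lines are medians and the dashed line is the median of all genes tested. Adamts16+/- against WT lies mostly below 0 with 1 red point, Adamts16+/H355Q against WT mostly above 0 with none, and Adamts16+/- against Adamts16+/H355Q holds 27 red points, all below 0.

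In complex I both the core, which carries flavin and iron-sulfur clusters, and the supernumerary subunits around it held called members (2 of 7 and 8 of 29). Ndufs1, the largest iron-sulfur subunit, was at 37.4, 34.2, 37.1 and 40.2 FPKM in Adamts16+/- libraries, 54.6, 54.2, 48.3 and 52.3 FPKM in Adamts16+/H355Q libraries, and 38.1 to 51.9 FPKM in WT libraries (median 44.8). All Adamts16+/- libraries lay below all Adamts16+/H355Q libraries, and WT overlapped both. The fold change of Adamts16+/- over Adamts16+/H355Q was -0.49 ± 0.10 (log2, SE, limma adjusted p = 0.0149). Ndufv1, which binds NADH and flavin, fell by 0.58 (adjusted p = 0.0205). This call was lost without Adamts16+/- library 1 or 2 or Adamts16+/H355Q library 1 or 2, though the fold change stayed negative.

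Ndufa2, a small supernumerary subunit, changed most in complex I. It was at 34.4, 39.6, 44.8 and 44.4 FPKM in Adamts16+/- libraries, 87.9, 71.8, 69.3 and 65.2 FPKM in Adamts16+/H355Q libraries, and 35.2 to 73.4 FPKM in WT libraries (median 51.2). The mutant groups did not overlap, and the fold change was -0.84 ± 0.18 (log2, SE, limma adjusted p = 0.0152). Ndufa1, an X-linked subunit needed to assemble the membrane arm, averaged 56.0 ± 7.39 FPKM in Adamts16+/- and 93.5 ± 15.2 FPKM in Adamts16+/H355Q libraries (SD, n = 4 each) and fell by 0.73 on the log2 scale (limma adjusted p = 0.0183). Its call was lost without Adamts16+/- library 1 or 2 or Adamts16+/H355Q library 2. Ndufs6, a subunit with a zinc site, fell by 0.57 (adjusted p = 0.0148). The other called members, Ndufa9, Ndufb2, Ndufb3, Ndufb4 and Ndufb11, had fold changes from -0.62 (Ndufb3) to -0.45 (Ndufb2) and each lost its call without at least 2 of the mutant libraries.

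Complex II holds 4 subunits, and its parts did not move alike. Sdhb, the iron-sulfur subunit, was at 57.9, 60.1, 70.7 and 70.8 FPKM in Adamts16+/- libraries, 119, 100.2, 92.3 and 94.4 FPKM in Adamts16+/H355Q libraries, and 62.7 to 108 FPKM in WT libraries (median 76.2). Its fold change was -0.64 ± 0.17 (log2, SE, limma adjusted p = 0.0299), with no overlap of the mutant groups. Sdhd, a membrane anchor, fell by 0.53 (adjusted p = 0.0288), and the other anchor Sdhc had a fold change of -0.53 that did not pass (adjusted p = 0.103). Sdha, the flavoprotein that oxidizes succinate, was at 104 to 115 FPKM in Adamts16+/- libraries, 108 to 135 FPKM in Adamts16+/H355Q libraries and 108 to 138 FPKM in WT libraries. These ranges overlapped, and the fold change of Sdha between the mutants was -0.06, with a 95% interval from -0.26 to 0.14. Sdhb and Sdhd lost their calls without Adamts16+/- library 1, 2 or 3 or Adamts16+/H355Q library 1 or 2, and Sdhb also without Adamts16+/H355Q library 4.

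In complex III the called members were Uqcrfs1, the Rieske iron-sulfur protein, the core protein Uqcrc2, and the small subunits Uqcr10 and Uqcrh. Uqcrfs1 was at 79.7, 72.9, 85.4 and 85.9 FPKM in Adamts16+/- libraries, 159, 126, 120.4 and 118 FPKM in Adamts16+/H355Q libraries, and 74.2 to 155 FPKM in WT libraries (median 97.0). Its fold change was -0.68 ± 0.20 (log2, SE, limma adjusted p = 0.0414), and the call was lost without any of the 8 mutant libraries and without WT library 5. Uqcrh, whose promoter is shown earlier, was at 167, 167, 197 and 179 FPKM in Adamts16+/- libraries, 294, 272, 237 and 259.8 FPKM in Adamts16+/H355Q libraries, and 174 to 284 FPKM in WT libraries (median 215). The mutant groups did not overlap, with a fold change of -0.58 ± 0.14 (adjusted p = 0.0211), which did not pass without Adamts16+/- library 1 or 2 or Adamts16+/H355Q library 1 or 2. Uqcrq, the least abundant member of complex III, had a fold change of -0.16 (adjusted p = 0.394).

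In complex IV the called members were Cox5a, Cox6c, Cox7a2 and Cox7b, none of which is a muscle isoform. Cox5a, which binds a regulatory thyroid hormone metabolite in cattle and lies on chromosome 9 (chr9:57521274-57532426, GRCm38, plus strand), was at 26.0, 28.2, 30.7 and 35.7 FPKM in Adamts16+/- libraries, 78.5, 59.2, 53.4 and 55.9 FPKM in Adamts16+/H355Q libraries, and 27.7 to 62.5 FPKM in WT libraries (median 36.7). The lowest Adamts16+/H355Q library stood well above the highest Adamts16+/- library. The fold change was -1.01 ± 0.22 (log2, SE, limma adjusted p = 0.0179), the widest of any called member in this comparison, and the call was lost without Adamts16+/- library 1 or 2 or Adamts16+/H355Q library 2. Cox7a2 averaged 92.2 ± 11.8 FPKM in Adamts16+/- and 159 ± 19.6 FPKM in Adamts16+/H355Q libraries (SD, n = 4 each), with a fold change of -0.78 (adjusted p = 0.0199). Cox6b1, the most abundant member of complex IV, had a fold change of -0.35 and did not pass (adjusted p = 0.0638), and Cox4i2 had one of -0.33 (adjusted p = 0.364).

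In complex V the called members were the F1 subunit Atp5e, Atp5g3 of the membrane rotor (c-ring), and the stalk or membrane subunits Atp5h, Atp5j, Atp5k and Atp5mpl. Atp5e was at 15.2, 15.7, 17.9 and 23.4 FPKM in Adamts16+/- libraries, 42.2, 32.0, 33.7 and 30.3 FPKM in Adamts16+/H355Q libraries, and 16.8 to 37.7 FPKM in WT libraries (median 23.3). The groups of mutants did not overlap, with a fold change of -0.93 ± 0.22 (log2, SE, limma adjusted p = 0.0209) that did not pass without Adamts16+/- library 1 or 2 or Adamts16+/H355Q library 1 or 2. Atp5k was at 61.5, 64.7, 66.8 and 78.4 FPKM in Adamts16+/- libraries, 125, 105, 107 and 102 FPKM in Adamts16+/H355Q libraries, and 58.8 to 107 FPKM in WT libraries (median 83.1). Its fold change was -0.69 ± 0.14 (adjusted p = 0.0135), the smallest adjusted p among the members. The other called members of complex V, Atp5g3, Atp5h, Atp5j and Atp5mpl, had fold changes from -0.86 (Atp5mpl) to -0.43 (Atp5h). These, with Atp5s, Uqcrc2, Uqcr10, Cox6c, Cox7a2 and Cox7b, lost their calls without Adamts16+/- library 1 or 2 and without Adamts16+/H355Q library 1 or 2. Uqcr10 and Cox6c lost theirs without any 1 of the mutant libraries. Atp5g3 and Atp5j lost theirs without any 1 of these but Adamts16+/- library 4, and Atp5j also without WT library 1, 2 or 3. Atp5h, Atp5mpl, Uqcrc2 and Atp5s also lost theirs without Adamts16+/- library 3 and without 1 further Adamts16+/H355Q library. Atp5a1, the most abundant gene of the whole set, had a fold change of -0.26 with a 95% interval from -0.60 to 0.08 (adjusted p = 0.291).

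The c-ring is made of 1 protein encoded by 3 genes, Atp5g1, Atp5g2 and Atp5g3, which differ in the peptide that targets it to mitochondria. Atp5g3 gave 53.1%, 48.4%, 50.9% and 50.1% of their summed FPKM in Adamts16+/- libraries, 59.1%, 56.7%, 56.6% and 57.6% in Adamts16+/H355Q libraries, and 50.4% to 56.8% in WT libraries (median 51.2%). Its share was higher in each Adamts16+/H355Q library than in each Adamts16+/- library, and WT libraries overlapped both groups. Atp5g3 fell by 0.74 on the log2 scale between the mutants (limma adjusted p = 0.0331), and Atp5g1 and Atp5g2 had fold changes of -0.39 and -0.31 (adjusted p = 0.153 and 0.112).

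**Figure D3:**
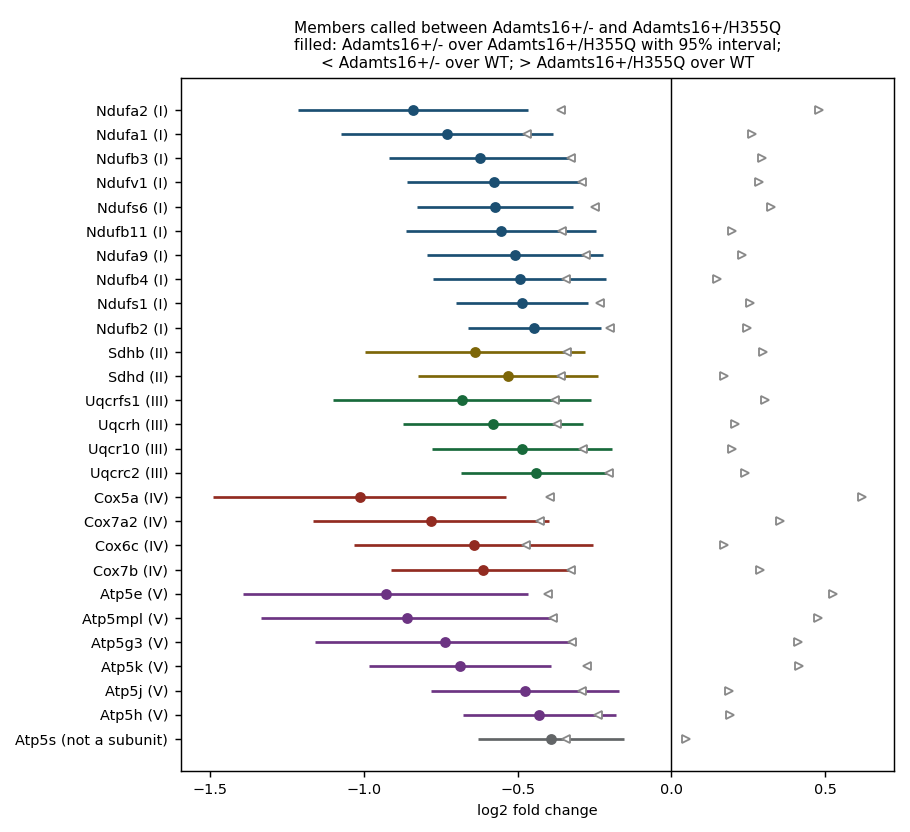
Log2 fold change (horizontal axis) of Adamts16+/- over Adamts16+/H355Q with its 95% interval for the 27 called members, coloured by complex; left-pointing triangles give Adamts16+/- over WT and right-pointing triangles Adamts16+/H355Q over WT. In every row the left-pointing triangle lies below 0 and the right-pointing triangle above 0.

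The called members were spread over the genome and covered a wide range of levels. Their median exon length in GENCODE was 1465 bases against 1675 bases for the 65 other tested members, their median level 76.4 against 46.2 FPKM, and they lay on 15 chromosomes. The 3 X-linked members of the called set were Ndufa1, Ndufb11 and Cox7b, and 0 of the 65 other tested members lay on the X chromosome. Xist ran from 0.0327 to 48.6 FPKM in Adamts16+/- and from 0.0425 to 99.7 FPKM in Adamts16+/H355Q libraries. The part of the mix of sexes in these 3 genes was not tested. Across the 92 members Spearman's rho of the fold change was 0.18 with exon length and -0.17 with mean level, and across all genes tested it was 0.22 (15160 genes) and -0.03 (15172 genes). These are descriptions across genes of the same libraries.

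Against WT, Adamts16+/- hearts had 1 called member, Cox8b, which was lower. Of all genes tested 1.18% were called lower and 1.57% higher, so 1 of 92 members is near the background. The members still leaned one way, with 90 of 92 negative, a median of -0.24 against 0.01 over all genes tested, and 37 (40.2%) at an unadjusted p under 0.05, where 19.6% of all genes tested were. In 2 members, Cox8b and Ndufa4l2, all Adamts16+/- libraries lay below all WT libraries, against 2.39% of all genes tested. The lean depended on which WT libraries were used: without WT libraries 5 to 7 the median was -0.09 and 0 members were called, and without WT libraries 1 to 4 it was -0.45 and 60 were called, where 10.8% of all genes were called lower. Counts were 0 without any 1 of the 4 Adamts16+/- libraries or WT library 5 or 6, 2 without WT library 1 or Adamts16+/H355Q library 4, and 7 without WT library 4, all of them lower. Of all genes, 0.198% to 0.534% were called lower without 1 Adamts16+/- library, and 0.573% and 0.712% without WT library 5 or 6. Without WT library 1 or Adamts16+/H355Q library 4 it was 0.877% and 1.12% of all genes, against 2.17% of members. Without WT library 4 it was 1.5% of all genes and 7.61% of members.

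Cox8b (chr7:140898945-140900446, GRCm38, minus strand) was at 9.97, 9.52, 11.001 and 14.04 FPKM in Adamts16+/- libraries, 33.0, 32.6, 15.8 and 14.8 FPKM in Adamts16+/H355Q libraries, and 14.4 to 41.0 FPKM in WT libraries (median 25.3). The highest Adamts16+/- library lay just under the lowest WT library, and the Adamts16+/H355Q libraries formed 2 levels. The fold change over WT was -1.24 ± 0.28 (log2, SE, limma adjusted p = 0.0312). With any 1 of the 4 Adamts16+/- libraries left out the adjusted p lay between 0.0539 and 0.107, and the call was lost each time. It was also lost when WT library 5 (adjusted p = 0.0629), WT library 6 (adjusted p = 0.0534) or WT libraries 5 to 7 together (fold change -0.90, adjusted p = 0.123) were left out. Between the mutants the fold change of Cox8b was -0.99 (adjusted p = 0.0555).

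Ndufa4l2, a paralog of Ndufa4 known as a target of hypoxia-inducible factors, was lower than WT in level in both mutant groups, without passing the test. It was at 3.42, 3.53, 4.23 and 3.21 FPKM in Adamts16+/- libraries, 5.53, 4.78, 3.63 and 2.89 FPKM in Adamts16+/H355Q libraries, and 4.25 to 10.3 FPKM in WT libraries (median 6.41). Its fold change over WT was -0.77 ± 0.20 in Adamts16+/- (log2, SE, limma adjusted p = 0.0542) and -0.60 ± 0.20 in Adamts16+/H355Q (adjusted p = 0.15). Both comparisons share the WT libraries. For the other complexes the members with the widest fold change of Adamts16+/- over WT were Ndufa1 (-0.47, adjusted p = 0.0891), Sdhd (-0.36, adjusted p = 0.122), Uqcrfs1 (-0.38, adjusted p = 0.246) and Atp5o, a stalk subunit (-0.47, adjusted p = 0.117).

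In Adamts16+/H355Q hearts 0 members passed against WT by limma, where 0.376% of all genes tested were called. At an unadjusted p under 0.05 there were 21 members (22.8%), near the 18.3% of all genes tested. Of the 92 members 78 were positive, with a median of 0.15 against 0.02 over all genes tested. The widest fold changes were 0.48 for Ndufa2 (adjusted p = 0.139), 0.32 for Sdhc (adjusted p = 0.345), 0.30 for Uqcrfs1 (adjusted p = 0.362), 0.62 for Cox5a (adjusted p = 0.137) and 0.53 for Atp5e (adjusted p = 0.181). The assembly factor Ndufaf4 was the member with all Adamts16+/H355Q libraries above all WT libraries, against 0.863% of all genes tested. Without WT libraries 5 to 7 the median was 0.33 with 42 members called (41 higher), where 13.9% of all genes were called higher, and without WT libraries 1 to 4 the median was -0.07 with 0 called. Without WT library 7 alone 10 members were called, 9 of them higher and 1 lower. Of all genes, 5.93% were called higher and 3.39% lower in that fit. In either direction 10.9% of members were called, near the 9.32% of all genes.

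The muscle isoforms of complex IV were compared with their partners as log2 ratios, each FPKM with 0.5 added, in exact two-sided permutation tests over libraries adjusted over 15 tests (5 pairs in 3 comparisons). The smallest p is 0.00606 for 4 against 7 libraries and 0.0286 for 4 against 4. The ratios that passed were Cox8b over Cox8a in Adamts16+/- hearts and Ndufa4l2 over Ndufa4 in Adamts16+/H355Q hearts (2 of 15). The log2 ratio of Cox8b over Cox8a averaged -2.95 ± 0.73 in Adamts16+/- (SD, n = 4) and -1.78 ± 0.48 in WT (SD, n = 7), a difference of -1.17 (exact permutation p = 0.00606, adjusted p = 0.0455), and was lower in 4 of 4 libraries than in any WT library. The margin was almost nil, with the highest Adamts16+/- library (number 1) at -2.48797 and the lowest WT library (number 7) at -2.48726. The p-value is the smallest possible and rests on this order. The log2 ratio of Ndufa4l2 over Ndufa4 averaged -4.38 ± 0.28 in Adamts16+/H355Q (SD, n = 4) and -3.60 ± 0.29 in WT (SD, n = 7), a difference of -0.78 (exact permutation p = 0.00606, adjusted p = 0.0455), again with no overlap. In Adamts16+/- hearts this ratio differed from WT by -0.55 (exact permutation p = 0.0121, adjusted p = 0.0606). No ratio passed without any 1 of the 8 mutant libraries or without WT library 2, 3, 4, 5 or 6, or with 1 FPKM added. Leaving out 1 library raises the smallest possible p of its comparisons, to 0.0167 for 3 against 7 libraries. After adjustment over 15 tests even a ratio with no overlap can then fail, so the losses in these fits say little about stability. Without WT library 1 or 7, 3 ratios passed.

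Cox6a2, the muscle isoform at about the level of its partner, made up 50.03%, 50.9%, 49.3% and 43.9% of the summed FPKM of Cox6a2 and Cox6a1 in Adamts16+/- libraries, 43.4%, 49.0%, 44.6% and 43.6% in Adamts16+/H355Q libraries, and 43.6% to 59.5% in WT libraries (median 51.9%). All groups overlapped. The muscle isoform Cox7a1 was at 17.1, 16.5, 20.7 and 21.6 FPKM in Adamts16+/- libraries, 35.1, 29.4, 28.6 and 21.9 FPKM in Adamts16+/H355Q libraries, and 18.0 to 34.7 FPKM in WT libraries (median 26.5). Its level did not overlap between the mutants, by a narrow margin, and missed the threshold (fold change -0.58, adjusted p = 0.0558). The log2 ratio of Cox7a1 over Cox7a2 differed from WT by -0.27 in Adamts16+/H355Q (exact permutation p = 0.0242, adjusted p = 0.0909), and that of Cox4i2 over Cox4i1 by -0.42 (exact permutation p = 0.0364, adjusted p = 0.109).

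**Figure D4:**
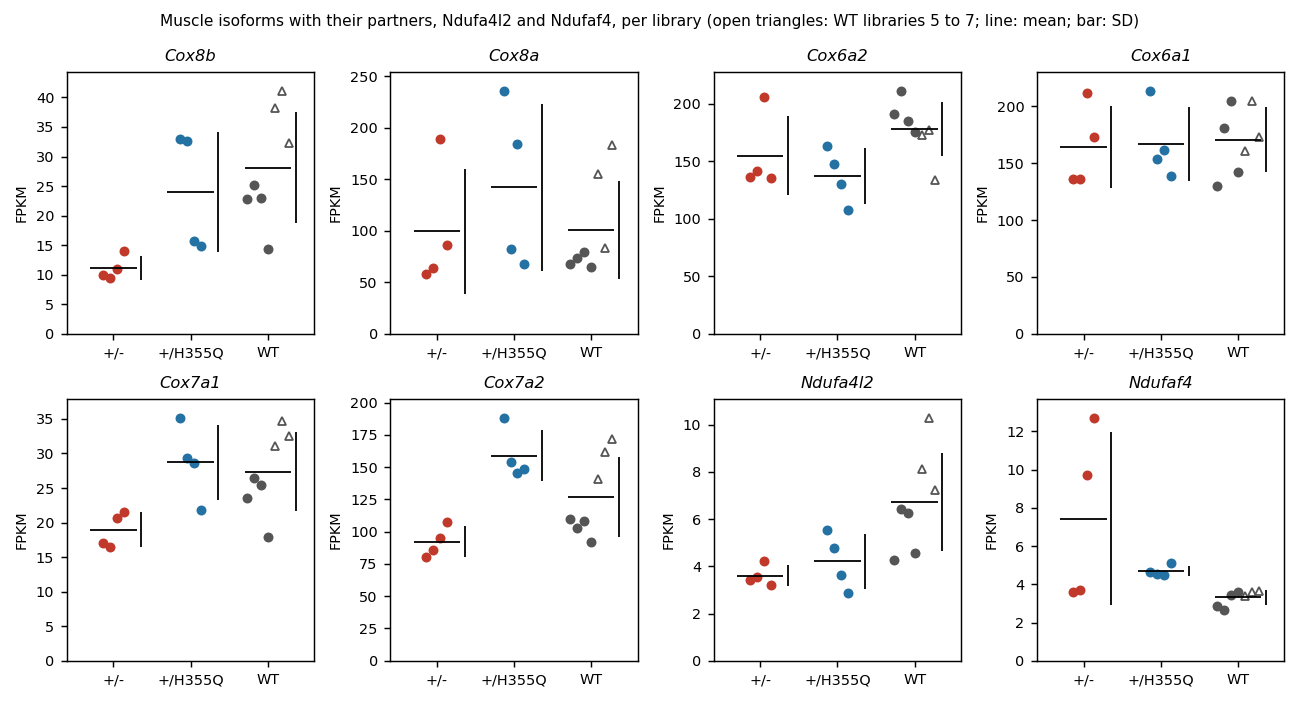
FPKM (vertical axes, from 0) of the muscle isoforms Cox8b, Cox6a2 and Cox7a1 with their partners, and of Ndufa4l2 and Ndufaf4, in each library; lines are means, bars SD and open triangles WT libraries 5 to 7. Cox8b is lowest in the Adamts16+/- libraries, Cox8a takes 2 levels within each genotype, and Ndufaf4 is high in Adamts16+/- libraries 3 and 4.

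**Figure D5:**
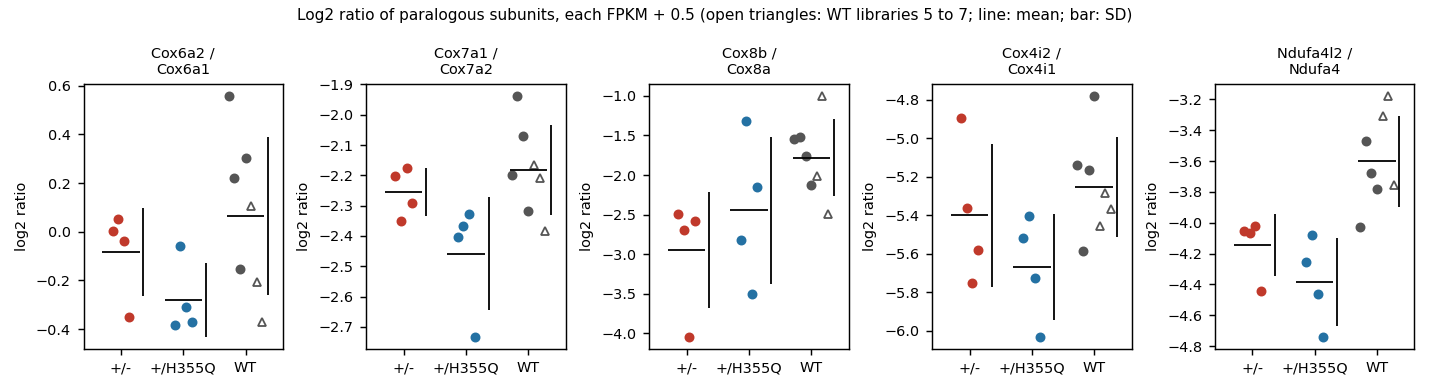
Log2 ratio (vertical axes) of each paralog pair, FPKM + 0.5, in each library of the 3 genotypes; lines are means, bars SD and open triangles WT libraries 5 to 7. For Cox8b over Cox8a the Adamts16+/- libraries lie below WT, with Adamts16+/- library 1 almost level with WT library 7. The Adamts16+/H355Q libraries lie below WT for Ndufa4l2 over Ndufa4.

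Cox8a, the partner of Cox8b, varied more within genotypes than between them. It was at 58.3, 64.2, 189 and 86.4 FPKM in Adamts16+/- libraries, and at 235, 82.0, 184 and 67.7 FPKM in Adamts16+/H355Q libraries. WT libraries 1 to 7 held 67.4, 73.7, 79.1, 64.6, 155, 83.0 and 183 FPKM of it. Adamts16+/- library 3, Adamts16+/H355Q libraries 1 and 3 and WT libraries 5 and 7 stood above all others. Its fold change was -0.07 ± 0.40 for Adamts16+/- over WT (log2, SE, limma adjusted p = 0.945), so the ratio of Cox8b over Cox8a carries this spread. Ndufaf4, an assembly factor of complex I, was at 3.59, 3.70, 9.71 and 12.7 FPKM in Adamts16+/- libraries, 4.64, 4.55, 4.48 and 5.11 FPKM in Adamts16+/H355Q libraries, and 2.64 to 3.65 FPKM in WT libraries (median 3.42). Libraries 3 and 4 of Adamts16+/- stood above all others, and the fold change over WT was 0.87 ± 0.26 (adjusted p = 0.0792).

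Other genes of the pathway were taken from lists. The 13 subunits encoded by mitochondrial DNA did not share the difference between the mutants: 0 were called, the median fold change was 0.06, and 9 of 13 were positive. Their mean of log2(FPKM + 0.5) was 12.49 to 12.61 in Adamts16+/- libraries, 12.45 to 12.72 in Adamts16+/H355Q libraries and 12.37 to 12.87 in WT libraries, so all groups overlapped. Against WT, 13 of 13 were negative in Adamts16+/- (median -0.11) and 12 of 13 in Adamts16+/H355Q (median -0.16), with 0 called in both comparisons (limma).

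Of 40 assembly factors outside the rule 4 were lower in Adamts16+/- than in Adamts16+/H355Q hearts: Surf1 and Cox17, which serve complex IV, Foxred1, which serves complex I, and Higd1a, a hypoxia-induced protein that binds complex IV. Higd1a averaged 8.43 ± 1.10 FPKM in Adamts16+/- and 13.3 ± 0.73 FPKM in Adamts16+/H355Q libraries (SD, n = 4 each), a log2 fold change of -0.63 (limma adjusted p = 0.0118). Of 22 carriers and markers of mitochondrial mass 4 were lower, including the ADP/ATP carrier Slc25a5 (-0.70, adjusted p = 0.0201), the phosphate carrier Slc25a3, the outer membrane channel Vdac1 and Mfn1, which fuses outer membranes (-0.24, adjusted p = 0.0466). Of 17 genes of the citric acid cycle 5 were lower (Dld, Sucla2, Fh1, Idh3b and Pdha1, with fold changes from -0.45 to -0.26), and of 13 genes of coenzyme Q synthesis 1 (Coq3). No gene of these 4 lists was higher, and 0 were called in either comparison against WT (limma). Of all genes tested 4.33% were called lower between the mutants, so 1 call in 13 genes says little about that list.

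Among 15 regulators of respiratory chain genes 1 passed against WT, Perm1, a muscle gene induced by PGC-1 and ERR factors. It averaged 2.31 ± 0.25 FPKM in Adamts16+/- (SD, n = 4) and 4.11 ± 0.81 FPKM in WT libraries (SD, n = 7) and fell by 0.70 on the log2 scale (limma adjusted p = 0.0228). The highest Adamts16+/- library was at 2.63 FPKM and the lowest WT library at 3.32 FPKM. The nuclear receptor Esrrb was lower in Adamts16+/- (0.83 ± 0.05 FPKM) than in Adamts16+/H355Q libraries (1.35 ± 0.17 FPKM, SD, n = 4 each), with a fold change of -0.47 (adjusted p = 0.023). The list's median fold change was -0.04 between the mutants. Of all genes tested 1.18% were called lower in Adamts16+/- against WT and 4.33% between the mutants. A single call in 15 genes thus says little about the list.

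Other genes moved with the members. The 25 ribosomal protein genes, short and abundant like many members but outside mitochondria, were all negative in Adamts16+/- against Adamts16+/H355Q, with a median of -0.36 and 3 called lower, Rps14 (-0.86), Rpl23 (-0.55) and Rps27 (-0.99). Their summed level was 4704 to 5468 FPKM in Adamts16+/- libraries, 6120 to 6906 FPKM in Adamts16+/H355Q libraries and 4314 to 7729 FPKM in WT libraries. Of 15 cardiomyocyte markers 4 were lower between the mutants, the contractile genes Myl2, Myl3, Myl4 and Tnnc1, and 1 was higher, Myh6 (median -0.03). Of 11 erythroid markers 2 were higher, Slc4a1 and Epb42 (summed level 19986 to 30729 FPKM in Adamts16+/-, 15233 to 34401 FPKM in Adamts16+/H355Q and 15779 to 32798 FPKM in WT). Of 9 tested skeletal muscle markers 2 were higher, Myog and Tnnt3 (summed level 139 to 187 FPKM in Adamts16+/-, 153 to 284 FPKM in Adamts16+/H355Q and 164 to 400.0 FPKM in WT). Ckm and Acta1 made up most of these sums, while 7 of 9 markers were positive between the mutants (median 0.72). Myog was at 0.53 FPKM in Adamts16+/- library 1, inside the WT range of 0.35 to 0.85 FPKM. The 7 endothelial markers ran opposite to the members in sum, at 181 to 187 FPKM in Adamts16+/- libraries, 147 to 154 FPKM in Adamts16+/H355Q libraries and 132 to 203 FPKM in WT libraries. The mutant groups did not overlap, and the WT libraries separated in the order opposite to the respiratory chain, with numbers 1 to 4 at 195 to 203 FPKM and numbers 5 to 7 at 132 to 173 FPKM. Of these markers 6 of 7 had a positive fold change between the mutants (median 0.22), with 0 called higher, and Egfl7, a factor secreted by endothelial cells, was called lower (-0.43, adjusted p = 0.0311). Fibroblast and epicardial markers summed to 318 to 399 FPKM in Adamts16+/-, 295 to 359 FPKM in Adamts16+/H355Q and 343 to 555 FPKM in WT libraries, with 0 called between the mutants (limma). Liver markers summed to 7.45 to 18.8 FPKM in Adamts16+/-, 9.86 to 33.7 FPKM in Adamts16+/H355Q and 5.86 to 50.8 FPKM in WT libraries, where WT libraries 5 to 7 held the 3 highest sums. Against WT, Adamts16+/- hearts had 1 lower cardiomyocyte marker (Tnni3), 1 lower and 2 higher skeletal muscle markers (Ckm; Myog and Acta1), 3 higher erythroid markers (Slc4a1, Epb42 and the embryonic globin Hbb-bh1), and lower Dpt, a fibroblast marker, and Cidea, a brown fat marker. Adamts16+/H355Q hearts had 0 called markers against WT. Over all genes tested the called shares between the mutants were 4.33% lower and 5.71% higher. In Adamts16+/- against WT they were 1.18% lower and 1.57% higher. The fat markers Ucp1, Elovl3 and Adipoq stayed under 1 FPKM in every library. The part of these lists, and of the lower depth of the Adamts16+/- libraries, in the differences of the respiratory chain was not tested.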

How the data were processed

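The authors deposited FPKM values per gene for 15 heart libraries (total RNA extracted with TRIzol and a VAHTS Universal V6 RNA-seq kit, per the labels' protocols). Tools listed, with no role or order, in the submitters' processing notes are HTSeq, HISAT2, DESeq2, fastp and R 3.2.0. Genome build, annotation and the FPKM tool: not given in the sources used here. Symbols came from GENCODE vM21 (GRCm38), which matched 55154 of 55335 identifiers.

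FPKM are not counts, and whole reads were not recovered: 60.4% to 65.2% of low values were whole multiples of 1 fragment's worth within 0.1 step. limma 3.58.1 (R 4.3.3, variance trend) was fitted to log2(FPKM + 0.5), keeping the 15172 genes whose mean reached 0.5 FPKM, in 1 fit of 15 libraries with genotype as the only term; fold changes on this scale understate low genes. A call is a Benjamini-Hochberg adjusted p under 0.05 over all genes. The fit was tested on simulated data. p-values measure the spread between libraries, which may be technical.

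Members, gene lists, alternatives and tests were chosen with earlier results of these data known. The text names all called members, the extremes of level and fold change in each complex, the isoform pairs, the c-ring genes and the called genes of the lists; Sdha and Ndufaf4 fall outside this rule and were chosen after their values were seen. Alternatives were run for members, isoform ratios and Adamts16 only. 1 member that the rule names is not reported here. Protein sequences were not used here.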

Additional observations from a re-analysis of the deposited data

Results flagged for a closer look

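Among 135 groups of libraries (45 named members in 3 genotypes), 4 held a library set apart from the others by Dixon's test, where chance flags about 1 in 20 groups. Adamts16+/H355Q library 1 was high for Atp5g3, at 179 FPKM where the other 3 lay at 122.8 to 132 FPKM, and for Ndufa4, at 115 FPKM where the others lay at 88.7 to 90.3 FPKM. Adamts16+/- library 3 was high for Cox6a2, at 206 FPKM where the others lay at 135 to 141 FPKM. Adamts16+/- library 4 was high for Ndufb2, at 4.53 FPKM where the others lay at 3.67 to 3.74 FPKM.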

How the results depend on the processing

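The 27 members lower in Adamts16+/- than in Adamts16+/H355Q hearts became 9 with no filter on low values, 47 with only the compared genotypes, 63 with array weights, 45 with the replicate block, 51 without WT libraries 5 to 7 and 47 without WT libraries 1 to 4, and 4 to 40 when 1 library was left out; all were lower in each of these. Of all genes 0.458% were called lower with no filter, 8.83% to 15.4% in the next 5 settings, and 0.573% to 8.43% when 1 library was left out. The 1 member lower than WT in Adamts16+/- became 0 with no filter, with the replicate block and without WT libraries 5 to 7. It became 4 with quantile normalization, all lower (4.35% of members, where 1.59% of all genes were called lower). With TPM scaling it became 3 (Ndufaf4 higher, 2 lower), which is 3.26% of members and 4.13% of all genes in either direction. Array weights gave 7, all lower (7.61% of members, where 2.77% of all genes were called lower). With protein-coding genes only or with length and GC trends removed it became 2, all lower (2.17% of members). Of all genes 1.48% and 1.57% were called lower in these 2 fits. The count was 60 without WT libraries 1 to 4, all lower (65.2% of members, where 10.8% of all genes were called lower). It was 0 to 7 when 1 library was left out. The 0 members in Adamts16+/H355Q against WT became 24 with array weights (21 higher), 33 with the replicate block (32 higher), 42 without WT libraries 5 to 7 (41 higher), and 0 to 10 when 1 library was left out. Calls over all genes grew as well, to 18.8%, 18.2% and 21.5% in the first 3 of these settings, against 0.376% in the reported fit. Of all genes, 12.1%, 11.9% and 13.9% were called higher in these 3 settings. The 2 isoform ratios became 0 with 1 FPKM added, without WT libraries 5 to 7 or 1 to 4 and in the paired test within numbers 1 to 4, and 0 to 3 when 1 library was left out. Without WT libraries 1 to 4 the exact test against WT allows no p below 0.0571, so no ratio against WT could pass. Without WT libraries 5 to 7 its smallest p is 0.0286, and leaving out 1 library raises it for the comparisons with that library. The paired test had only the pairs numbered 1 to 4, so its 0 says little. The block leaves WT libraries 5 to 7 without a partner. Same-numbered libraries deviated together in some pairs and apart in others (correlations -0.23 to 0.21). Libraries with different numbers spanned -0.29 to 0.31, so this check shows no pairing by number but cannot exclude it. The other settings (mean of at least 2 FPKM, median of ratios, no variance trend, and for the counts of members another pseudocount) kept the counts of members within 1.5 times. No called member changed sign. The fits that leave libraries out also hold fewer samples, and the cause of these changes in counts was not tested. Depth can only be estimated, and small differences in genes under about 5 FPKM are the least certain.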
